A study of Mus musculus with 8 samples.

Results

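The enzymes that write, copy and erase 5-methylcytosine were examined as RNA in newborn mouse brains after maternal cadmium (Cd) exposure. The set held 9 genes, found in the deposited table by their symbols: *Dnmt1*, *Dnmt3a*, *Dnmt3b*, *Dnmt3l*, *Uhrf1*, *Tet1*, *Tet2*, *Tet3* and *Tdg*. All 9 were present among the 49585 genes of the table for the B genome (C57BL/6J, GRCm38). They were chosen by gene function, with earlier results of these data known.

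The brains came from newborn B × C females, that is, hybrids of a C57BL/6J mother and a CAST/EiJ father, at postnatal day 1 by the labels and within a day of birth by the study's methods. Dams drank water with 0 ppm or 50 ppm CdCl2 for weeks before mating and through pregnancy, and the exposure stopped at birth. There were 4 whole brains per dose, each pup from another litter, so every library is 1 animal. All brains share the hybrid genotype and the sex, only the dam was dosed, and a whole brain mixes many cell types. In such bulk tissue fewer cells of a type and less RNA per cell cannot be told apart. The RNA was poly(A)-selected and read from strand-specific libraries, and reads per gene were counted by the authors. Replicate numbers below follow the order of deposition and pair nothing.

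DNA methylation in mammals is placed mostly on cytosines that precede a guanine (CpG). DNMT3A and DNMT3B set new marks, DNMT3L is a partner without activity of its own, and DNMT1 copies marks onto the new strand after replication, guided there by UHRF1. TET1, TET2 and TET3 oxidise 5-methylcytosine, and the glycosylase TDG cuts out the further oxidised bases so that repair can restore cytosine. In the developing brain DNMT1 and UHRF1 are known from dividing progenitors, and DNMT3A and the TET enzymes from postmitotic neurons. DNMT1 is not confined to dividing cells.

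Promoter sequence was compared first, because the writer that copies marks and its guide are both known to be expressed in dividing cells. The RefSeq promoter table (GRCm38.p6) matched all 9 genes with 16 start sites, and the 250 bases before each start were searched on both strands for 4 spellings of an E2F-type motif, TTTCGCGC, TTTGGCGC, TTTCCCGC and TTTGCCGC, which do not overlap one another in the stretches shown. A match was found before 2 of the 16 starts, 1 of *Dnmt1* and 1 of *Uhrf1*, against 611 of all 32851 windows of the table. Both matches have the spelling TTTCGCGC. They are given 5′ to 3′ on the gene's strand with the motif in capitals; in *Dnmt1* it is read on the opposite strand, 219 bases before the third of its starts in the order of transcription, and in *Uhrf1* 185 bases before the second. The *Dnmt1* stretch (chr9:20952824-20952853, minus strand) and the *Uhrf1* stretch (chr17:56304117-56304146, plus strand) are these.
Dnmt1: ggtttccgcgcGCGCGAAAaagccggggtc
Uhrf1: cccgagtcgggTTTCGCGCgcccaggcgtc
A match is only a match of letters and does not show that a factor binds there. The matching windows held 26 CpGs in *Dnmt1* and 30 in *Uhrf1*, against a median of 6 over all windows, and TTTCGCGC itself contains CpG. The share of matches was not compared among windows of like CpG content. Counts per gene do not show whether these starts are used in the brain. Of the *Dnmt1* window 166 of the 250 bases are exonic in other transcripts of the gene, and none of the *Uhrf1* window is.

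The windows of these genes also differ in CpG, the sequence on which their products act. Across all windows of the table the median was 6 CpGs in 250 bases. The single *Tet2* window held 51, a number that 0.0670% of all windows reach, and the richest *Dnmt3a* window held 40. *Dnmt3l* had 3 to 5 in its 3 windows and was the only member whose richest window lay below that median, while the richest windows of the other 8 held 15 or more.

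The libraries held 22916434 to 30708087 counted reads, and normalization factors lay between 0.986 and 1.02. Levels are given as CPM, read counts scaled to the normalized size of each library. A count of 3, the limit that 0 counts allow, corresponds to 0.0980 to 0.132 CPM in these libraries, and this limit covers counting error only. Neurons were seen through *Snap25*, *Syt1* and *Stmn2*, with 6146 to 50122 counts per library, and progenitors through *Pax6* and *Nes*, with 623 to 3420. *Tubb3* and *Sox2* were at 0 in every library, but both lie wholly inside the span of a longer gene on the same strand. Of the 427 protein-coding genes placed like this, 95.3% were at 0, against 15.2% of the 21307 others, so a 0 there does not show absence. No exon base of the 9 members lies in the span of another gene on the same strand. The replicate 2 brain at 0 ppm stood apart from the other controls in choroid plexus markers, with a mean log2 CPM of 5.04 against 4.09 to 4.19.

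*Dnmt1* (chr9:20907209-20959888, minus strand, GRCm38), the maintenance methyltransferase, had 187, 197, 169 and 183 CPM in the 0 ppm brains and 175, 173, 198 and 165 CPM in the 50 ppm brains. The highest and the lowest brain were both exposed ones, and the groups overlapped. The fold between 50 ppm and 0 ppm was 0.967, with a 95% interval of 0.870 to 1.08.

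*Uhrf1* (chr17:56303321-56323486, plus strand), which recruits DNMT1 to newly replicated DNA, was measured at 21.5, 21.02, 18.4 and 15.4 CPM in controls and at 19.7, 17.5, 21.3 and 13.6 CPM in exposed brains. Replicate 4 was the lowest brain of each dose. The coefficients of variation were 14.6% and 18.5%, and the fold of 0.946 had an interval of 0.778 to 1.15. A pseudogene, *Gm5648*, shares 3.94% of the read-length windows of *Uhrf1* but had at most 1 count in a library.

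*Dnmt3a* (chr12:3806007-3914443, plus strand), the main de novo methyltransferase of neurons, had 293, 293, 287 and 309 CPM in the control brains and 289, 277, 273 and 299 CPM in the exposed ones. It varied least of the methyltransferases, by 3.18% among controls and 4.24% among exposed brains. Its fold was 0.962 with an interval of 0.878 to 1.05, the narrowest among the members. Counts per gene do not separate the long and short *Dnmt3a* isoforms, which begin at different starts.

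*Dnmt3b* (chr2:153649450-153687730, plus strand), the de novo enzyme of early embryos and centromeric repeats, was low, at 3.11, 3.83, 3.00 and 4.38 CPM in the controls and 3.26, 2.56, 3.68 and 3.22 CPM in the exposed brains. These levels rest on 73 to 113 counts per library. The fold of 0.891 had the widest interval, 0.684 to 1.16, and the groups overlapped. Its close relative *Dnmt3c* shares 3.60% of its read-length windows and had at most 4 counts.

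*Dnmt3l* (chr10:78041947-78063622, plus strand), a cofactor known from germ cells and early embryos, had 1, 0, 1 and 1 counts at 0 ppm and 0, 0, 1 and 1 counts at 50 ppm. Every library was under the limit of 3 counts, so no fold is given and *Dnmt3l* RNA was not detectable at this depth.

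*Tet1* (chr10:62804570-62908996, minus strand) had 79.2, 76.6, 68.4 and 80.6 CPM in the control brains and 74.5, 59.7, 74.0 and 79.5 CPM in the exposed ones. One exposed brain, replicate 2, lay below all others, and the remaining exposed values fell within the control range. The fold was 0.944 with an interval of 0.831 to 1.07.

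*Tet2* (chr3:133463679-133545139, minus strand), the TET enzyme that lacks the CXXC DNA-binding domain, had 43.0, 41.6, 43.4 and 45.3 CPM in the control brains and 41.2, 35.7, 50.9 and 46.9 CPM in the exposed ones. The exposed brains lay on both sides of the tight control range, with a coefficient of variation of 15.2% against 3.49%. This difference in spread was not tested. The fold was 1.01 with an interval of 0.877 to 1.16.

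*Tet3* (chr6:83362373-83459084, minus strand) had 171, 185, 157 and 181 CPM in the control brains and 153, 140, 187 and 172 CPM in the exposed ones. The exposed brains spanned the controls, with replicate 2 the lowest and replicate 3 the highest of all 8. The fold was 0.940 with an interval of 0.830 to 1.06.

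*Tdg* (chr10:82629828-82650799, plus strand) had 44.3, 51.5, 44.3 and 48.6 CPM in the control brains and 43.6, 44.1, 50.5 and 53.1 CPM in the exposed ones. The fold was 1.01 with an interval of 0.895 to 1.15, and the groups overlapped. Processed copies and neighbours share 24.1% of the read-length windows of *Tdg*, among them *Tdg-ps* with 114 to 171 counts per library against 1204 to 1416 for *Tdg*, so its level is less certain than that of the other members. An exonic overlap with *Glt8d2* on the other strand covers 6.83% of *Tdg*. Protein-coding genes wholly inside a gene on the opposite strand only were at 0 in 20.8%, against 14.98% for genes inside no other gene, far from the 95.3% on the same strand.

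**Figure D1:**
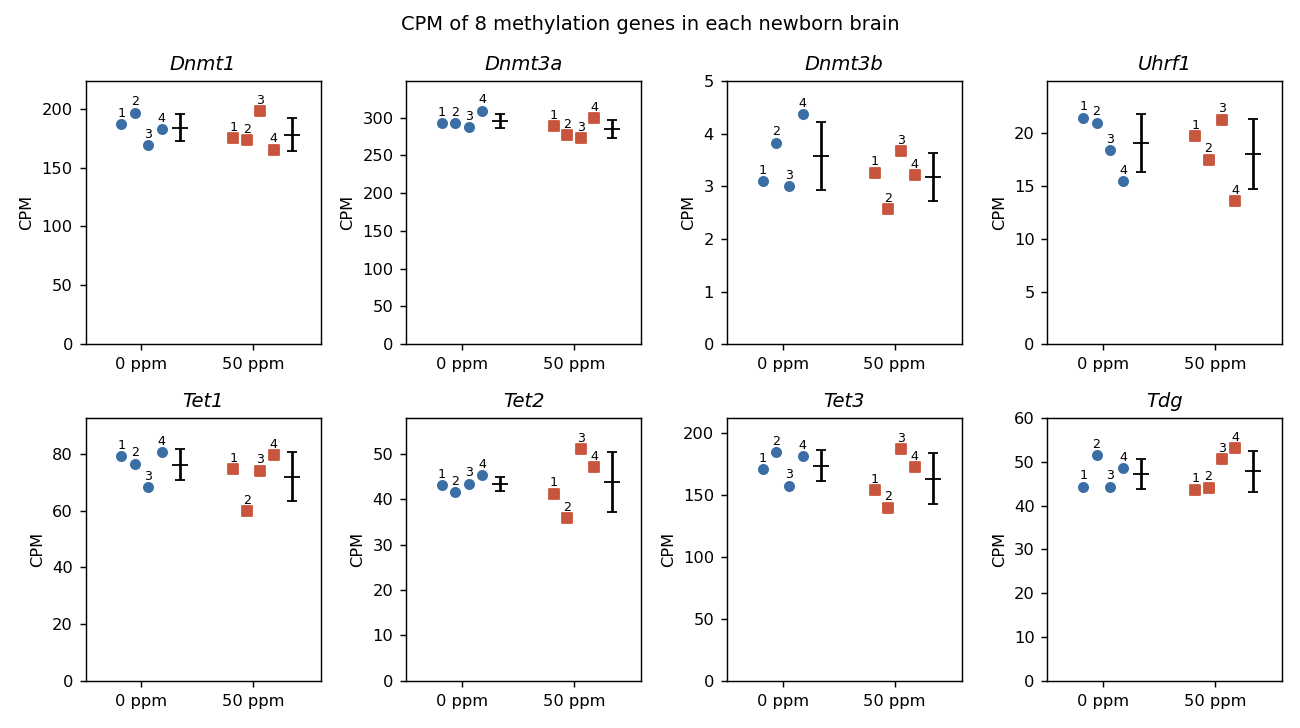
CPM (vertical axes, each starting at 0) of the 8 members above 3 counts in the 4 brains per dose, with circles for 0 ppm, squares for 50 ppm, numbers for replicates, and black bars for the mean and SD. The doses overlap in every panel, and replicate 2 at 50 ppm is the lowest brain for *Dnmt3b*, *Tet1*, *Tet2* and *Tet3*.

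Maternal Cd was not followed by a detected difference in any of these genes. Tested in edgeR (quasi-likelihood, p adjusted after Benjamini-Hochberg across 23113 genes), 0 of the 9 members had an adjusted p under 0.05, and each adjusted p was 0.999. Of all genes tested, 0.0173% passed that threshold. At an unadjusted p under 0.05 there were also 0 members, against 3.75% of all genes, and the lowest p of a member was 0.310, for *Tet3*, in the same edgeR test. No member had groups that did not overlap, which 2.09% of all genes had. In exact two-sided permutation tests over the 70 labellings of the brains, whose smallest p is 0.0286, the lowest p among the 8 members above 3 counts was 0.229, for *Dnmt3a*. DESeq2 on the same counts also called 0 members, at either threshold.

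The intervals state what size of difference these 8 brains can hold. Across the 8 members above 3 counts the bounds ran from a fold of 0.684 to 1.16, and the low end belongs to *Dnmt3b*, the one with the fewest counts. The log2 fold changes were -0.05 ± 0.07 (SE) for *Dnmt1*, -0.06 ± 0.06 for *Dnmt3a*, -0.17 ± 0.18 for *Dnmt3b* and -0.08 ± 0.13 for *Uhrf1*. They were -0.08 ± 0.09 for *Tet1*, 0.01 ± 0.10 for *Tet2*, -0.09 ± 0.09 for *Tet3* and 0.02 ± 0.09 for *Tdg*. Of these, 6 were negative and 2 positive, with a median of -0.07 against -0.0033 over all genes tested. None of the 8 differed from 0 by more than its interval, so the signs are a description.

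**Figure D2:**
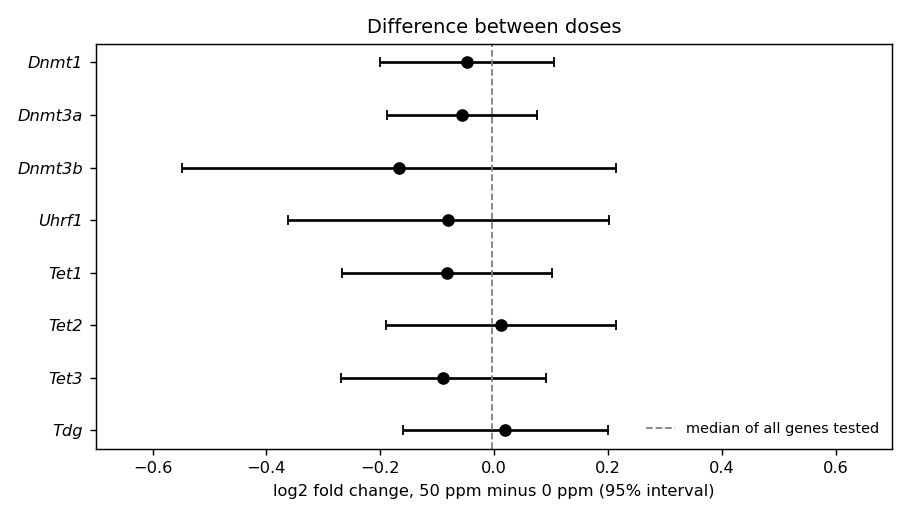
Log2 fold change between 50 ppm and 0 ppm (horizontal axis) of the 8 members above 3 counts, as points with 95% intervals from edgeR's fit; the dashed line is the median of all genes tested. Every interval includes 0, and that of *Dnmt3b* is the widest.

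Markers of brain regions differed among the same libraries, and no marker gene passed the adjusted threshold between doses. Counts of markers at an unadjusted p under 0.05 are to be read against the 3.75% of all genes at that level. Of the 14 tested genes of the brainstem and spinal cord list, 11 were higher at 50 ppm at an unadjusted p under 0.05 and 0 at an adjusted p under 0.05 by edgeR, and the median log2 fold change of the list was 1.41. Their summed level ran from 23.5 to 114 CPM in the controls and from 103 to 245 CPM in the exposed brains, and an exact permutation test of the score gave p = 0.0571. The score (mean log2 CPM) was -1.55, -0.10, 1.94 and 2.11 in the controls and 3.17, 2.47, 2.07 and 2.35 in the exposed brains, so that 2 controls stood apart and replicate 4 of the controls reached the exposed range. *Hoxa3* and *Hoxa4* of this list, which lie inside another gene, were at 0. Of the 9 forebrain genes, 5 were lower at an unadjusted p under 0.05, with summed levels of 426 to 650 and 434 to 532 CPM and an exact permutation p of the score of 0.0571. Of 11 oligodendrocyte genes 4 were higher at an unadjusted p under 0.05 (exact permutation p of the score 0.0857), of 9 tested neuron genes 1 was higher (exact permutation p = 0.114), of 8 tested progenitor genes 2 were lower (exact permutation p = 0.286), and none of the blood, meninges or choroid plexus genes passed. With the score of the brainstem list added to the model, edgeR again called 0 members, and the log2 fold changes of *Dnmt1* and *Uhrf1* became 0.02 and 0.11.

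Levels between genes were compared per length, as CPM per kilobase of exon over all 8 brains. The counts come from the alignment of these hybrid brains to the B genome only. Loss of reads from the CAST/EiJ allele, which may differ between genes, was not tested. *Dnmt1* was the highest at 24.5 ± 1.66 (SD, n = 8) CPM per kilobase, and *Dnmt3a* followed at 17.4 ± 0.702. *Tet3* at 10.1 ± 1.00 and *Tdg* at 8.84 ± 0.719 came next, then *Tet1* at 4.79 ± 0.454 and *Uhrf1* at 4.36 ± 0.682. *Tet2* stood at 2.58 ± 0.265 and *Dnmt3b* at 0.662 ± 0.110 CPM per kilobase.

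Of the 7 neighbouring pairs in this order, 6 differed in the same direction in 8 of 8 brains. Each had an adjusted p of 0.00911 (exact two-sided sign-flip permutation test, adjusted over the 7 pairs), from the smallest p that test allows. The order and its pairs were taken from these same brains, so the p-values describe only how steady each step was between brains. They do not cover errors that a gene carries in every brain. *Tet1* was above *Uhrf1* in 6 of 8 brains by a ratio of 1.11, which the same exact permutation test did not separate (adjusted p = 0.297). The steps ran from a ratio of 1.14 between *Tet3* and *Tdg* to 3.92 between *Tet2* and *Dnmt3b*. The step between *Tet3* and *Tdg* is not settled, because other genes share 24.1% of the read-length windows of *Tdg*. Per kilobase of the longest transcript, 4 of the 7 pairs passed. There *Dnmt1* exceeded *Dnmt3a* by a ratio of 1.03 in 4 of 8 brains (exact permutation adjusted p = 0.474) and *Uhrf1* exceeded *Tet2* by 1.08 in 6 of 8 (adjusted p = 0.394), so both steps depend on which length is used. Counting over whole gene spans, to which the 0 counts of nested genes point, would also place reads from introns in these values, and how many was not tested.

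**Figure D3:**
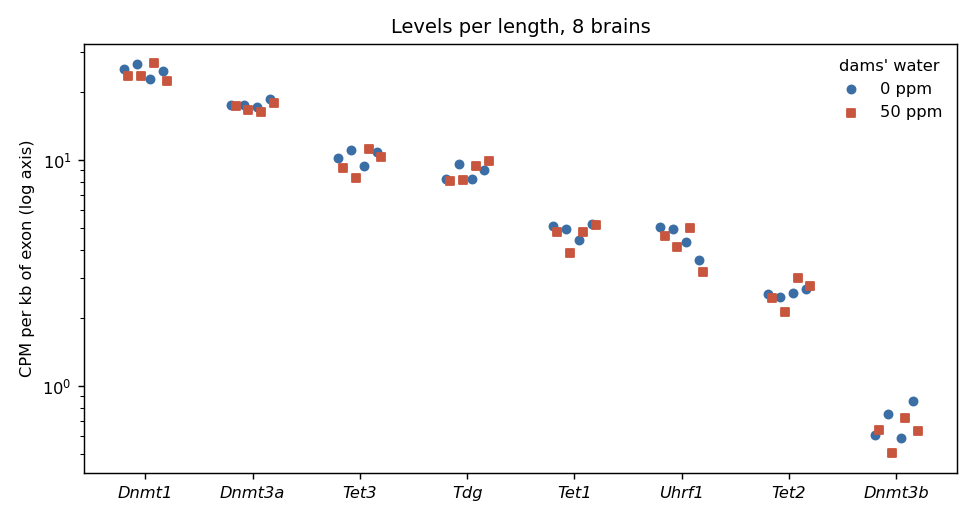
CPM per kilobase of exon on a log axis for the 8 members above 3 counts, ordered by mean, with circles for 0 ppm and squares for 50 ppm brains. *Dnmt1* and *Dnmt3a* are at the top, *Dnmt3b* at the bottom, *Tet1* and *Uhrf1* overlap, and the doses mix within every gene.

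Within each family the composition was similar from brain to brain. *Tet3* made up 55.9% to 59.8% of the summed *Tet* level per kilobase, *Tet1* 25.2% to 29.3% and *Tet2* 13.3% to 15.9%. Of the summed level of the 3 active methyltransferases, *Dnmt1* made up 54.6% to 61.0%, *Dnmt3a* 37.3% to 43.9% and *Dnmt3b* 1.24% to 1.94%. Summed *Tet* to summed *Dnmt* was 0.412 ± 0.00904 (SD, n = 4) at 0 ppm and 0.406 ± 0.0416 at 50 ppm. The ratio of *Uhrf1* to *Dnmt1* was 0.199, 0.185, 0.188 and 0.147 in the controls and 0.195, 0.175, 0.187 and 0.143 in the exposed brains, lowest in replicate 4 of each dose. These shares change with the length used, carry the same limit of the B alignment, and were not tested between doses.

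The members were then set against cell division in each brain, read from a list of 24 genes such as *Mki67* and *Top2a*, of which 23 were tested. The score is their mean log2 CPM, and the doses did not separate in it, at 3.99 to 4.31 for controls and 3.99 to 4.28 for exposed brains (exact permutation p = 0.429). Over 8 brains, *Uhrf1* had a Pearson r of 0.74 (exact permutation p = 0.0378, adjusted over 8 relations 0.303) and a Spearman rho of 0.86 (exact permutation p = 0.0107, adjusted 0.0857). *Dnmt1* had an r of 0.63 (exact permutation p = 0.101, adjusted 0.404) and a rho of 0.60 (exact permutation p = 0.132, adjusted 0.529). Neither passed the adjusted threshold, and among the other 6 members r lay between -0.23 for *Dnmt3a* and 0.52 for *Tet3*. Single brains moved these values. Without replicate 4 at 0 ppm, r was 0.83 for *Tet3* (exact permutation p = 0.0266, adjusted 0.145, n = 7), 0.77 for *Dnmt1*, 0.75 for *Dnmt3b* and 0.67 for *Uhrf1*. Without replicate 2 at 50 ppm, r was -0.64 for *Dnmt3a* and 0.24 for *Tet3*. The members were therefore not ranked by r, and differences between their r values were not tested.

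Centred within each dose, r was 0.73 for *Uhrf1* and 0.60 for *Dnmt1*. Without the 2 brains farthest from the median score, 0 ppm replicate 1 and 50 ppm replicate 2, r was 0.77 for *Uhrf1* (exact permutation p = 0.0792, n = 6) and 0.60 for *Dnmt1*. With the median over the list in place of the mean, r was 0.80 for *Uhrf1* (exact permutation p = 0.0181, adjusted 0.145, n = 8) and 0.40 for *Dnmt1*. For *Dnmt3a* r was -0.49 centred, -0.74 without the 2 far brains and -0.55 with the median, none past the adjusted threshold. It was 0.15 without 0 ppm replicate 4. With each brain left out in turn, r for *Uhrf1* was 0.90 without replicate 4 at 50 ppm, its lowest brain (exact permutation p = 0.00417, adjusted 0.0333, n = 7). The rho of *Uhrf1* there was 0.89 (exact permutation p = 0.0123, adjusted 0.0984). Its r lay between 0.67 and 0.80 in the other 7 leave-outs, where the exact permutation p adjusted over the members was 0.153 to 0.690. Centred, *Uhrf1* had a permutation p of 0.0463, adjusted 0.371. For the centred values the pairings were permuted across doses as well as within them, so this p is approximate and not exact.

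**Figure D4:**
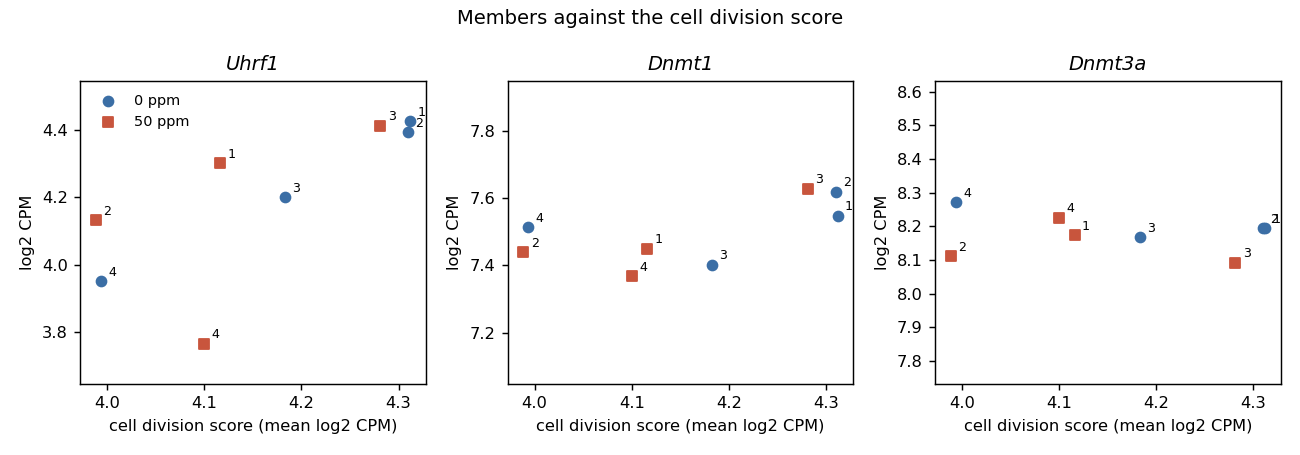
Log2 CPM of *Uhrf1*, *Dnmt1* and *Dnmt3a* (vertical axes of equal span) against the cell division score (mean log2 CPM of 23 genes), 1 point per brain, circles for 0 ppm, squares for 50 ppm and numbers for replicates. The r values are 0.74 for *Uhrf1*, 0.63 for *Dnmt1* and -0.23 for *Dnmt3a*, none past the adjusted threshold, and replicate 4 at 50 ppm lies low for *Uhrf1*.

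The gene most like each member over the 8 brains was sought among 14602 genes with a mean of at least 1 CPM, by Pearson r of log2 CPM. *Ankrd11* (r = 0.97) and *Gtf3c1* (0.97) were nearest to *Dnmt1*, and *Gpn2* (0.98) and *Tax1bp3* (0.97) to *Uhrf1*. *Golga3* (0.99) and *Kdm3b* (0.99), a histone demethylase gene, were nearest to *Tet3*, *Cul5* (0.98) and *Cpsf6* (0.98) to *Tet1*, and *Ino80d* (0.97) and *Ttc17* (0.97) to *Tet2*. For *Tdg* they were *Eny2* (0.99) and *Man1a2* (0.97), for *Dnmt3b* *Fbxl20* (0.95) and *Ap1ar* (0.94), and for *Dnmt3a* the lowly expressed *Gm12359* (0.92) and *Gm12296* (0.91). These are the highest of many values over few brains, all from the same libraries, and are given as a description.

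The rest of the pathway was read through 4 lists of 58 genes, of which 57 were tested: readers of methylated DNA, partners and recruiters of the methyltransferases, the methyl donor cycle, and cofactor and repair genes of demethylation. By edgeR's quasi-likelihood test 0 of the 57 passed the adjusted threshold, with a lowest adjusted p of 0.999, and 1 had an unadjusted p under 0.05, which is 1.75% against 3.75% of all genes. The median log2 fold change of the 57 was -0.03.

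That 1 gene was *Cdca7*, a partner of the chromatin remodeller HELLS in maintaining methylation, at 25.4, 24.1, 29.3 and 19.1 CPM in the controls and 19.6, 20.6, 20.1 and 19.2 CPM in the exposed brains. The exposed brains lay close together at the low end of the control range, and replicate 4 of the controls was below all of them. Its log2 fold change was -0.30 ± 0.11 (SE; edgeR p = 0.0150, adjusted p = 0.999), and an exact permutation test gave p = 0.143.

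Of the 11 readers 8 had negative and 3 positive values, with a median log2 fold change of -0.03 and 0 at an unadjusted p under 0.05. *Mbd3*, a subunit of the NuRD complex, averaged 95.1 ± 7.13 CPM (SD, n = 4) at 0 ppm and 91.2 ± 6.50 at 50 ppm. Of the 16 partners and recruiters 15 were tested, 10 negative and 5 positive, with a median of -0.03. *Trim28*, a corepressor that holds methylation at imprinted regions, averaged 338 ± 33.3 and 316 ± 12.2 CPM, and *Nsd1*, a histone methyltransferase whose mark attracts DNMT3A, 307 ± 27.3 and 290 ± 23.6.

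Of the 13 genes of the methyl donor cycle 8 were positive and 5 negative, with a median log2 fold change of 0.03 and 0 at an unadjusted p under 0.05. *Mat2a*, which makes the methyl donor S-adenosylmethionine, averaged 143 ± 15.6 and 145 ± 10.7 CPM, and its regulatory partner *Mat2b* 42.5 ± 5.35 and 40.0 ± 1.75. Of the 18 cofactor and repair genes 11 were negative and 7 positive, with a median of -0.05 and 0 at an unadjusted p under 0.05. *Idh1*, a source of the 2-oxoglutarate that TET enzymes consume, averaged 366 ± 50.5 and 361 ± 10.9 CPM, and *Idh3a* of the citric acid cycle 128 ± 8.84 and 129 ± 10.1. In this list *Apex1*, named after its values were seen, was the 1 gene of the 57 with groups that did not overlap, at 69.97 CPM on average in controls and 63.9 in exposed brains. Such groups were seen in 2.09% of all genes. By edgeR *Apex1* had an unadjusted p of 0.0774 and an adjusted p of 0.999. Exons of *Pip4p1* on the other strand cover 61.67% of *Apex1*.

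**Figure D5:**
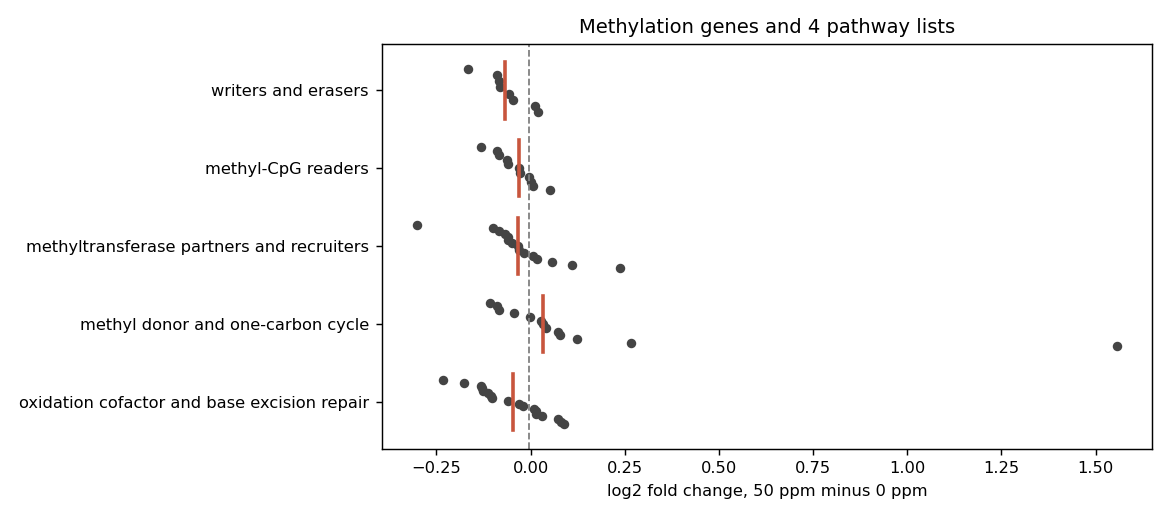
Log2 fold change between 50 ppm and 0 ppm (horizontal axis) of the 8 members and of the tested genes of 4 pathway lists, 1 point per gene, with the median of each group as a red bar and that of all genes as a dashed line. Most genes lie near 0; the far point in the methyl donor row is *Bhmt*, which had at most 6 counts in a library.

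Germline genes known to be kept silent by promoter methylation were also examined as RNA. Methylation was not measured, so their levels do not show the activity of these enzymes. Of 16 such genes 11 were tested, 5 had at most 3 counts in every library, and the summed level was 16.6 to 18.7 CPM at 0 ppm and 16.3 to 19.2 CPM at 50 ppm. Most of this sum was 1 gene, *Brdt*, at 11.2 ± 0.825 CPM (SD, n = 4) in controls and 11.9 ± 0.662 in exposed brains, named after its values were seen. Also above 3 counts in every library were *Tdrd1* (42 to 87 counts), *Ddx4* (25 to 39), *Dazl* (14 to 39), *Stk31* (20 to 29) and *Sycp3* (6 to 23). These too are named after their values were seen, and reads were thus counted on part of the list in these brains. Exons of *Chpt1* on the other strand cover 52.22% of *Sycp3*. Whether the reads come from spliced transcripts, introns or background was not tested, so these counts do not show that a promoter was active. By edgeR 0 of the 11 passed the adjusted threshold. At an unadjusted p under 0.05, which 3.75% of all genes reached, 1 of the 11 was lower at 50 ppm. It was *Tex11*, which had at most 7 counts and is named after its values were seen. The score of the list did not separate the doses (exact permutation p = 0.286).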

How the data were processed

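The authors deposited unnormalized counts of reads on each gene from poly(A) RNA of 8 newborn brains. They had trimmed the initial 10 bases of single-end reads, aligned them with STAR to the B genome (mm38, Ensembl) and counted them with htseq-count. The versions of these tools and the strand and feature settings of the count are not given in the sources used here. The table for the C genome was not used here, because its identifiers are paired with no symbol. Data other than RNA-seq were not analysed here.

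Symbols, coordinates and lengths came from GENCODE M21 (GRCm38), which names 49326 of the 49585 genes. Genes with 0 counts in more than 2/3 of libraries were left out, a rule taken from the study's methods, and 23113 genes remained here. Counts were normalized by TMM and tested with edgeR 4.0.16 (R 4.3.3) in a quasi-likelihood fit (glmQLFit, glmQLFTest) on treatment alone, with p-values adjusted after Benjamini-Hochberg across those genes (threshold 0.05). The standard error is the absolute log2 fold change over the square root of F, and intervals are 95% from the t distribution of the fit. Scores are means of log2 CPM (prior count 2). Read-length windows are 115 bases. Exact permutation tests were two-sided. In all 12 pairs of brains within a dose, counts differed beyond sampling noise (chi-square per degree of freedom 8.67 to 21.1).

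Named were all members, per pathway list the genes at an unadjusted p under 0.05 and the 2 most abundant, and the 2 genes most like each member; some single genes that this rule names are not reported here. Members, lists and this rule were chosen with earlier results of these data known. The alternatives were DESeq2 1.42.0, its size factors in edgeR, no filter, a minimum of 10 counts in 4 libraries, a robust fit, limma-voom (limma 3.58.1) with sample weights, the brainstem and spinal cord or cell division score as a covariate, and each library left out. The code was tested on simulated counts.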

Additional observations from a re-analysis of the deposited data

Results flagged for a closer look

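In a group of 4 brains, a brain counted as far from the others when its gap to the nearest one took a larger share of the group's range than Dixon's 95% critical value allows. Of 62 such groups examined 5 were marked, and chance marks about 1 in 20. None of the members was among them. *Trim28* was at 387 CPM in 0 ppm replicate 2, against 314 to 326 CPM in the other controls. In the same brain the methyl donor list had a mean log2 CPM of 3.65 against 3.36 to 3.41, the neuron list 8.07 against 8.23 to 8.25, and the choroid plexus list 5.04 against 4.09 to 4.19. In 0 ppm replicate 3 the list of methyl-CpG readers had a mean log2 CPM of 5.59, against 5.68 in each of the other controls.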

How the results depend on the processing

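Under all 16 alternatives to the edgeR fit, 0 members and 0 pathway genes were called at the adjusted threshold, and 0 members at an unadjusted p under 0.05. The number of all genes called ranged from 1 to 52 (4 as reported, 18 with DESeq2, 20 without 0 ppm replicate 3, 52 without a filter). Pathway genes at an unadjusted p under 0.05 numbered 0 with limma-voom and 1 to 2 with a library left out (2 without 0 ppm replicate 1 and 2 without 0 ppm replicate 2, against 1 as reported). Signs of members near 0 turned. *Dnmt1* was at 0.024 log2 with the brainstem and spinal cord covariate; *Uhrf1* was at 0.11 with that covariate, 0.031 with the cell division covariate and 0.020 with limma-voom; *Tet2* was at -0.015 with limma-voom. With a library left out, the log2 fold change ranged from -0.17 to 0.031 for *Uhrf1*, from -0.064 to 0.097 for *Tet2* and from -0.034 to 0.064 for *Tdg*, and stayed negative, though it moved by more than 1.5 times, for *Dnmt1* (-0.097 to -0.014), *Dnmt3a* (-0.081 to -0.030), *Dnmt3b* (-0.24 to -0.058), *Tet1* (-0.13 to -0.0032) and *Tet3* (-0.16 to -0.021). The values nearest 0 came without 50 ppm replicate 4 for *Dnmt1*, replicate 3 for *Dnmt3a* and replicate 2 for *Tet1* and *Tet3*, and without 0 ppm replicate 4 for *Dnmt3b*. By Pearson r, members correlated with the cell division score numbered 1 without 50 ppm replicate 4, *Uhrf1*, and 0 without any other library. By Spearman rho *Uhrf1* did not pass in that leave-out (exact permutation adjusted p = 0.0984). Per kilobase of the longest transcript 4 of 7 neighbouring steps in the order of levels passed, against 6 of 7 as reported. The cause of these shifts was not tested. In all, 212 of 229 recomputed values kept their direction and side of the threshold or, for counts of genes or pairs, stayed within 1.5 times the reported one. No paired analysis was possible because the labels give no replicate number that ties a brain at 0 ppm to one at 50 ppm. Depth limits mainly *Dnmt3b* (73 to 113 counts) and *Dnmt3l* (at most 1).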
